A study of Mus musculus with 10 samples.

Results

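The transcripts of 9 transcription factors that set or keep the identity of macrophages were followed in cultured peritoneal macrophages with and without Gsα. The set was Spi1, Cebpa, Cebpb, Maf, Irf8, Klf2, Klf4, Klf6 and Batf3, taken by symbol from a table of 53465 genes, and all 9 were among the 13203 genes with enough counts to be tested. The factors were chosen by symbol with the counts of this same genotype comparison known. Their levels and fold changes are therefore given as a description, and counts of calls among them, in any setting, support nothing.

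RNA was sequenced from 5 libraries of Mac-GsαKO mice and 5 libraries of control mice (CTR), all aged 6 to 8 weeks. Both groups were grown in the same serum-containing medium with no added agent. The name of the knockout says that macrophages lack Gsα, and the labels name neither the Cre driver nor the control genotype. Gsα, encoded by Gnas, is the G protein subunit that links surface receptors to adenylyl cyclase and so to cAMP. Libraries are called KO 1 to KO 5 and CTR 1 to CTR 5 after the numbers in their labels.

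PU.1, the product of Spi1, opens myeloid enhancers together with the C/EBP proteins, and the graded amount of PU.1 directs progenitors toward the macrophage lineage. IRF8 partners with PU.1 in monocytes and in conventional dendritic cells, MAF restrains self-renewal of mature macrophages, and Krüppel-like factors are zinc finger proteins tied to monocyte differentiation and to the quiescent state of myeloid cells. BATF3 is a basic leucine zipper protein best known for the development of cross-presenting dendritic cells. Gsα is needed for receptors to raise cAMP, which acts in part through CREB on cAMP response elements.

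Libraries held 16877249 to 19235777 counts in Mac-GsαKO and 15664243 to 18028974 counts in CTR. Gnas stood between 37.0 and 43.5 CPM (counts scaled to the library total and by TMM) in Mac-GsαKO and between 359 and 491 CPM in CTR. The macrophage marker Cd68 averaged 2828 ± 112 CPM in Mac-GsαKO and 2929 ± 197 CPM in CTR (SD, n = 5 each). The macrophage markers Adgre1 and Csf1r averaged higher in Mac-GsαKO. Adgre1 had 865 ± 35.3 CPM there and 750 ± 69.4 CPM in CTR, and Csf1r 1295 ± 113 CPM there and 942 ± 89.4 CPM in CTR. Mitochondrial genes took 1.20 to 1.36% of counts in Mac-GsαKO and 1.39 to 1.97% in CTR, which do not overlap, and the part of this difference in the results was not tested. The summed level of 8 T and NK cell markers was 1.38 to 2.68 CPM in Mac-GsαKO and 0.621 to 3.12 CPM in CTR. Mesothelial and fibroblast markers summed to 57.6 to 72.7 CPM in Mac-GsαKO and 36.0 to 160 CPM in CTR, and mast cell and eosinophil markers to 10.3 to 24.9 CPM in Mac-GsαKO and 5.34 to 34.7 CPM in CTR. B cell markers summed to 167 to 217 CPM in Mac-GsαKO and 147 to 212 CPM in CTR, and neutrophil markers to 12.4 to 25.3 CPM in Mac-GsαKO and 19.0 to 27.4 CPM in CTR. On the second principal component CTR 4 stood apart at 46.7, with the other libraries at -25.6 to 10.9. On the first, CTR 4 and CTR 5 were both at 34.7, the other CTR libraries at 6.85 to 18.5 and Mac-GsαKO at -28.7 to -11.6. Results that rest on these libraries are given with and without them. Whether libraries are from separate mice is not stated, so the errors and tests here reflect variation among these libraries, which may be technical. In bulk RNA, a change in the share of cells of one kind and a change in RNA per cell cannot be told apart.

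Of the 9 factors, Batf3, Maf and Klf2 stood higher in Mac-GsαKO with an adjusted p under 0.05 in the fit across all genes (edgeR quasi-likelihood test), and none stood lower. Over all genes tested 1.83% were called higher and 2.11% lower. Calls of all genes were 46.3% higher ones, and 59.4% with scaling by library size alone. At an unadjusted p under 0.05 by edgeR 4 factors were higher and 0 lower, where 2895 of the 13203 genes tested were under it in either direction. DESeq2 and voom called 0 factors lower at an adjusted p under 0.05. The count of 3 factors called higher was 1 without KO 1, KO 2 or CTR 3 and 5 with voom. It was 2 in some other settings, such as without a filter on low counts. Batf3 passed in each of 20 other settings, Maf in 17 and Klf2 in 10. All Mac-GsαKO libraries were above all CTR libraries for Batf3 and Maf, against 3.25% of all genes tested. The median log2 fold change of the 9 was 0.34, beside -0.0058 over all genes tested. Since the factors were gathered with these values in view, nothing is read from these counts.

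**Figure D1:**
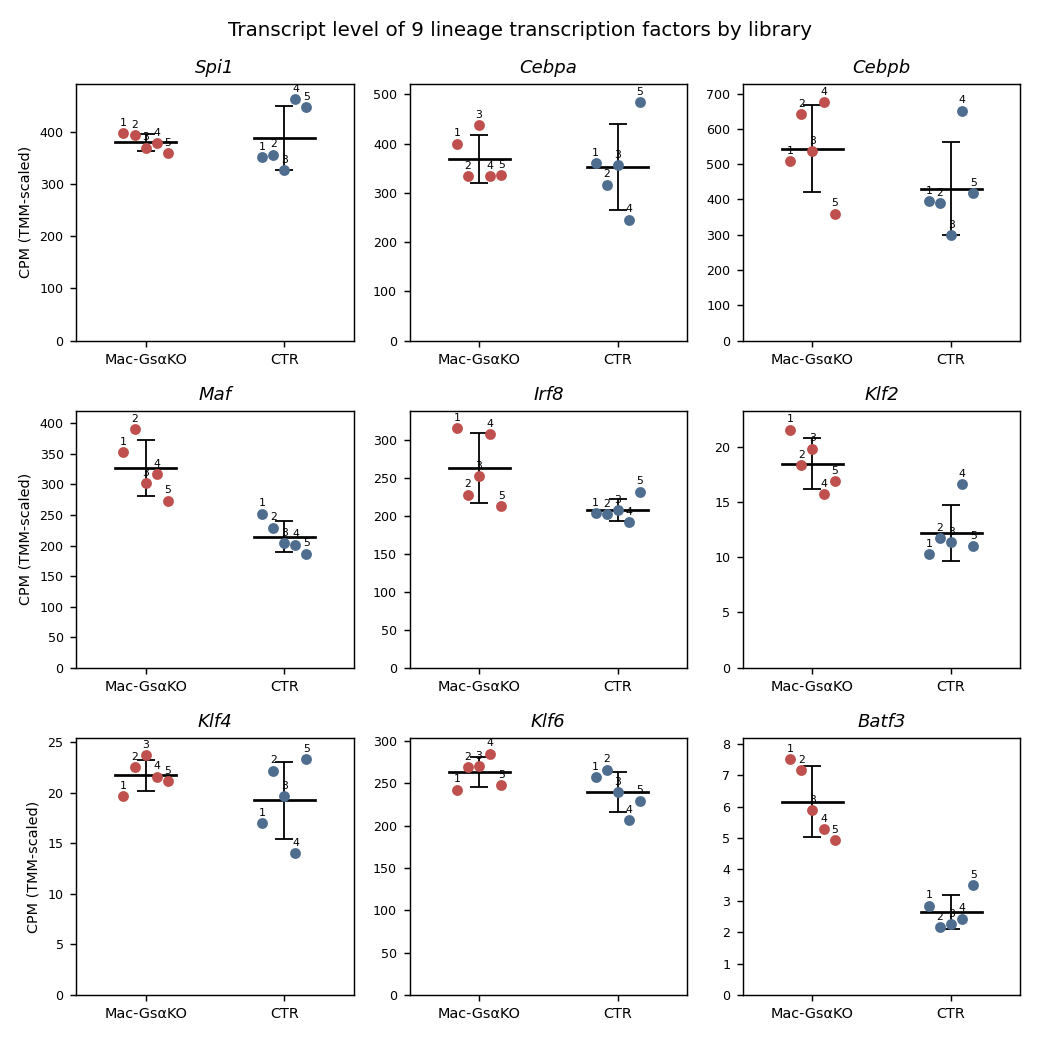
Level of each factor in CPM (vertical axis, from 0) for the 5 Mac-GsαKO libraries (left) and the 5 CTR libraries (right); points are libraries with their number, the bar is the mean and the whisker the SD. Batf3 and Maf show no overlap between genotypes, Klf2 overlaps through CTR 4 alone at 16.6 CPM, and for Cebpa and Cebpb the CTR libraries spread most widely.

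Batf3 had the highest fold of the set and the lowest level. It had 7.53, 7.17, 5.89, 5.29 and 4.94 CPM in KO 1 to KO 5, against 2.85, 2.16, 2.26, 2.43 and 3.49 CPM in CTR 1 to CTR 5. Every Mac-GsαKO library was above every CTR library. The counts behind these values were 86 to 140 in Mac-GsαKO and 36 to 56 in CTR, which is far above the limit that a count of 0 allows (3 counts, 0.154 to 0.203 CPM, for counting error only). The log2 fold change was 1.22 (SE 0.19), and it lay between 1.11 and 1.35 in 20 other settings, with 1.35 without CTR 4 and CTR 5.

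Because BATF3 and IRF8 are used to define conventional dendritic cells of the cross-presenting kind, markers of those cells were set beside Batf3. Of 10 such markers 5 had too few counts to test, and none of the other 5 passed the test in either direction. Those 5 all had a log2 fold change above 0, with a median of 0.29. Xcr1, a chemokine receptor that defines these cells, reached at most 1 count in a Mac-GsαKO library and 4 counts in a CTR library. Clec9a, a receptor for dead cells, averaged 0.924 ± 0.447 CPM in Mac-GsαKO and 0.373 ± 0.0636 CPM in CTR, and reached at most 27 and 7 counts in a library. Flt3, the growth factor receptor of dendritic cells, averaged 0.319 ± 0.317 CPM in Mac-GsαKO and 0.453 ± 0.269 CPM in CTR. Itgae and Cd8a, also too low to test, averaged 0.195 and 0.192 CPM in Mac-GsαKO, against 0.0567 and 0.133 CPM in CTR. The summed level of the 10 markers, most of it from Wdfy4 and Cadm1, was 150 to 253 CPM in Mac-GsαKO and 108 to 215 CPM in CTR, and none of the 10 was at 0 in all libraries. The part of such cells in the Batf3 level was not tested.

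Maf, which encodes a large MAF protein of resident and alternatively activated macrophages, had 352, 390, 302, 317 and 273 CPM in KO 1 to KO 5. In CTR 1 to CTR 5 it had 252, 229, 204, 202 and 187 CPM. The lowest Mac-GsαKO library was above the highest CTR library. Its log2 fold change was 0.61 (SE 0.11), or 1.52-fold, and 0.52 without CTR 4 and CTR 5. It lay between 0.52 and 0.67 in 20 other settings.

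The ratio of Maf to Spi1 in FPKM, which does not depend on how libraries are scaled, was 0.263 to 0.341 in Mac-GsαKO and 0.144 to 0.248 in CTR. It was higher in every Mac-GsαKO library than in any CTR library, with CTR 4 and CTR 5 the lowest.

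Irf8 had 316, 228, 252, 307 and 212 CPM in KO 1 to KO 5, against 204, 202, 208, 191 and 232 CPM in CTR 1 to CTR 5. KO 2 and KO 5 lay below CTR 5, so the genotypes overlapped, while KO 1 and KO 4 lay well above every CTR library. The log2 fold change was 0.34 (SE 0.12), and 0.36 without CTR 4 and CTR 5. It lay between 0.27 and 0.41 in 20 other settings. The ratio of Batf3 to Irf8 in FPKM was 0.0468 to 0.0855 in Mac-GsαKO and 0.0290 to 0.0409 in CTR. Batf3 was thus higher relative to Irf8 in each Mac-GsαKO library than in any CTR library.

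**Figure D2:**
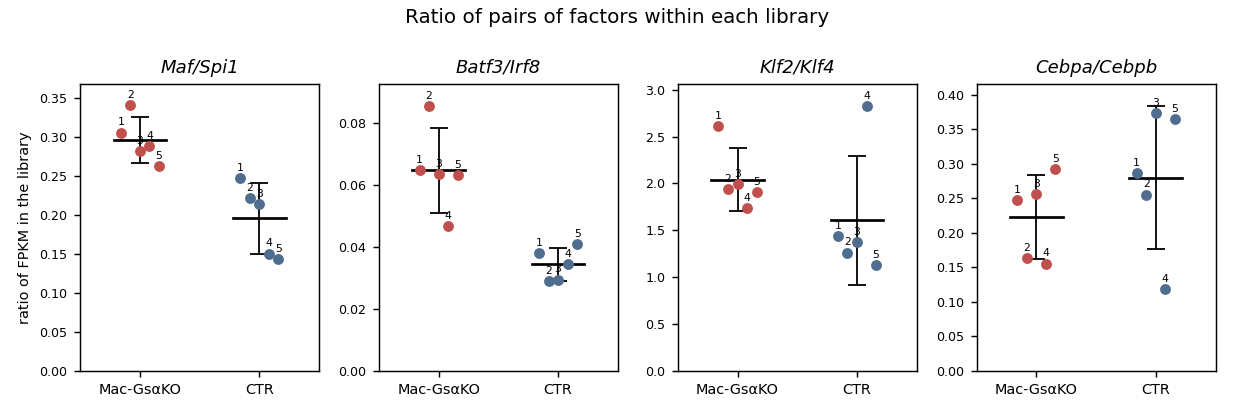
Ratio of deposited FPKM values of pairs of factors within each library (vertical axes, from 0), Mac-GsαKO left and CTR right, with mean and SD over 5 libraries. Maf over Spi1 and Batf3 over Irf8 separate the genotypes, whereas Klf2 over Klf4 does so apart from CTR 4 at 2.82, and Cebpa over Cebpb overlaps.

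Spi1 was the steadiest of the set among Mac-GsαKO libraries. It had 397, 394, 370, 379 and 359 CPM in KO 1 to KO 5, against 351, 356, 327, 462 and 447 CPM in CTR 1 to CTR 5. All Mac-GsαKO libraries lay inside the CTR range, whose upper end was set by CTR 4 and CTR 5. The coefficient of variation was 4.25% in Mac-GsαKO and 15.8% in CTR. The log2 fold change was -0.03 (SE 0.10), and 0.14 without CTR 4 and CTR 5, so its sign turned on these libraries. It had the other sign in 5 of 20 other settings.

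Cebpa, the C/EBP factor that commits progenitors to the granulocyte and macrophage lineages, had 400, 333, 438, 334 and 335 CPM in KO 1 to KO 5. In CTR 1 to CTR 5 it had 360, 317, 356, 246 and 485 CPM. The Mac-GsαKO libraries lay between the CTR extremes, CTR 4 at the low end and CTR 5 at the high end. On average the log2 fold change was 0.06 (SE 0.16) and 0.10 without CTR 4 and CTR 5. It had the other sign in 3 of 20 other settings, among them -0.08 after correction for gene length and GC content.

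Cebpb, the C/EBP factor of activated and mature macrophages, was the most abundant of the 9 per length. It had 508, 641, 538, 675 and 360 CPM in KO 1 to KO 5, against 395, 389, 299, 652 and 417 CPM in CTR 1 to CTR 5. CTR 4 exceeded all but KO 4, and KO 5 lay below the other Mac-GsαKO libraries and below 4 of the 5 CTR libraries. The log2 fold change was 0.34 (SE 0.21), 0.60 without CTR 4 and CTR 5, and 0.13 with the length and GC correction. In GENCODE M21, exons of the gene Tmem189 on the opposite strand cover 312 bases of Cebpb exon. Tmem189 averaged 450 ± 57.4 CPM in Mac-GsαKO and 395 ± 72.7 CPM in CTR, and was highest in CTR 4 among the CTR libraries, as Cebpb was. The strand setting of the counting is not given in the sources used here, so reads of the shared stretch cannot be assigned to one of them.

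The balance of the C/EBP factors overlapped between the genotypes. Cebpa over Cebpb in FPKM was 0.248, 0.163, 0.256, 0.156 and 0.293 in KO 1 to KO 5, and 0.286, 0.256, 0.374, 0.118 and 0.365 in CTR 1 to CTR 5. CTR 4 had the lowest ratio of the 10 libraries and CTR 3 the highest.

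Klf2, a factor of quiescent monocytes and of blood flow sensing in endothelium, had 21.6, 18.3, 19.8, 15.7 and 16.9 CPM in KO 1 to KO 5. In CTR 1 to CTR 5 it had 10.3, 11.7, 11.3, 16.6 and 11.03 CPM. CTR 4 alone reached the Mac-GsαKO range, above KO 4. Klf2 averaged 1.51 times the CTR level in the fit, a log2 fold change of 0.60 (SE 0.14), and 0.73 without CTR 4. It lay between 0.50 and 0.73 in 20 other settings.

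Klf4, a factor of monocyte differentiation and alternative activation, had 19.7, 22.5, 23.7, 21.6 and 21.1 CPM in KO 1 to KO 5, against 17.0, 22.2, 19.7, 14.1 and 23.3 CPM in CTR 1 to CTR 5. The Mac-GsαKO libraries were tightly grouped, with a coefficient of variation of 6.96% against 19.6% in CTR, and the ranges overlapped. Its log2 fold change was 0.17 (SE 0.13), and 0.15 without CTR 4 and CTR 5. Klf2 over Klf4 in FPKM was 1.73 to 2.61 in Mac-GsαKO and 1.13 to 2.82 in CTR, and without CTR 4 its CTR values were 1.44, 1.26, 1.38 and 1.13.

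Klf6, a factor of inflammatory macrophage activation, had 243, 269, 271, 285 and 248 CPM in KO 1 to KO 5. In CTR 1 to CTR 5 it had 257, 266, 240, 206 and 230 CPM. The ranges overlapped, with CTR 4 the lowest library of the 10. Klf6 had a log2 fold change of 0.13 (SE 0.09), 0.05 without CTR 4 and CTR 5, and 0.22 with the length and GC correction.

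**Figure D3:**
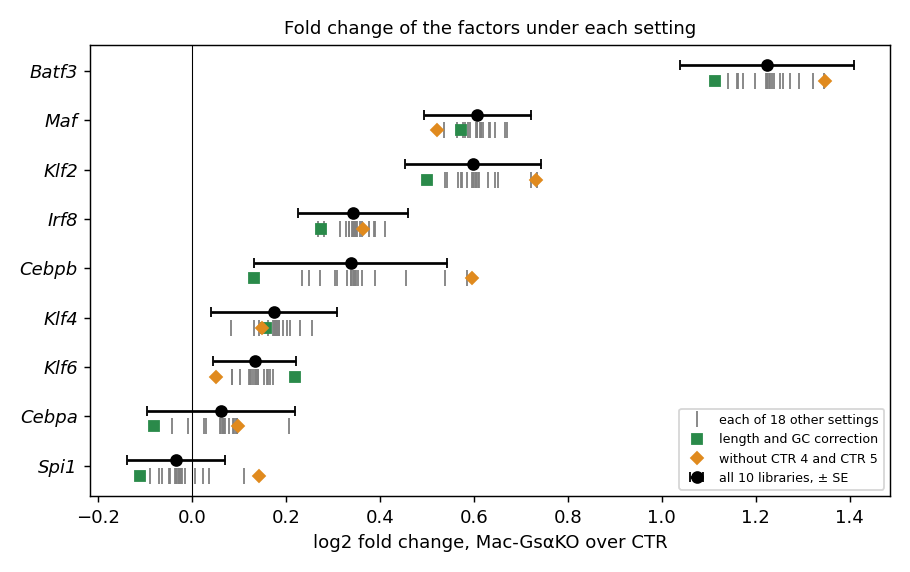
Log2 fold change of each factor, Mac-GsαKO over CTR (horizontal axis), in the fit of all 10 libraries (black points, ± SE) and in 20 other settings below each point (18 grey ticks, an orange diamond without CTR 4 and CTR 5, a green square with the length and GC correction). Batf3, Maf, Klf2, Irf8, Cebpb, Klf4 and Klf6 stayed above 0 in each setting, and Cebpa and Spi1 lay on both sides of 0.

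CTR 4 held an extreme place among the CTR libraries for most of the factors. It was the highest CTR library for 3 of the 9, Spi1, Cebpb and Klf2, and the lowest for 4, Cebpa, Irf8, Klf4 and Klf6. Over all genes tested CTR 4 was the highest CTR library for 29.0% and the lowest for 27.8%. Its TMM scaling factor was 0.908, beside 0.994 to 1.03 in the other CTR libraries and 1.01 to 1.02 in Mac-GsαKO. KO 5 was the lowest Mac-GsαKO library for 5 of the 9, against 23.1% of all genes tested.

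Per gene length the factors spanned a wide range in both genotypes. In mean FPKM the order in Mac-GsαKO was Cebpb at 366 ± 83.4, Spi1 at 116 ± 4.99, Cebpa at 77.9 ± 10.4, Klf6 at 49.0 ± 3.23, Maf at 34.6 ± 4.83, Irf8 at 30.7 ± 5.37, Klf2 at 10.1 ± 1.29, Klf4 at 4.99 ± 0.358 and Batf3 at 1.95 ± 0.365 FPKM. Only Maf and Irf8 were neighbours with overlapping libraries there. In CTR the order was Cebpb at 280 ± 70.9, Spi1 at 116 ± 16.5, Cebpa at 73.2 ± 20.5, Klf6 at 43.6 ± 5.69, Irf8 at 23.7 ± 2.61, Maf at 22.1 ± 2.95, Klf2 at 6.47 ± 0.999, Klf4 at 4.34 ± 1.01 and Batf3 at 0.817 ± 0.189 FPKM. The pairs Spi1 and Cebpa, Cebpa and Klf6, and Irf8 and Maf overlapped in CTR. The orders differed in the place of Maf and Irf8 alone.

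**Figure D4:**
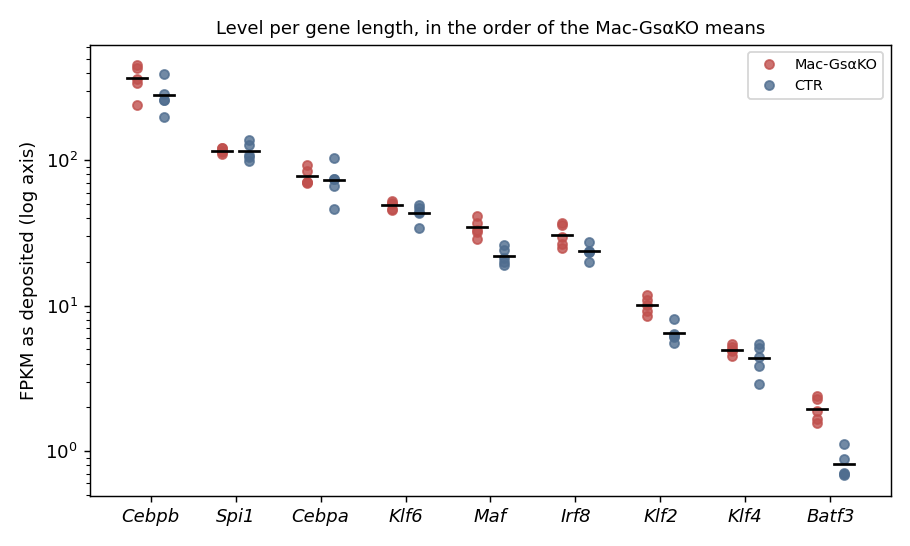
Deposited FPKM of each factor by library on a log axis, Mac-GsαKO (left, red) and CTR (right, blue) for each gene, with the mean as a bar. Cebpb is at the top, at 199 to 452 FPKM, and Batf3 at the bottom, and the order is the same in both genotypes apart from Maf and Irf8.

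Promoters were read for the factors from RefSeq (GRCm38.p6), 250 bases before to 50 after the annotated start, and 7 of the 9 had an entry, with none used for Spi1 and Maf. Each was searched on both strands for TGACG, the core of the cAMP response element, to which CREB can bind. It lay in the promoters of Cebpb, Klf2 and Klf4, and in 20.8% of the 32851 promoters of the table. Of the 7307 promoters with a GC content of at least 63.0%, that of Klf6, it lay in 32.3%. The full palindrome TGACGTCA, which contains the core, lay in none of the 7 and in 1.79% of all. The sequences below show the 3 promoters with a core and that of Batf3, the factor with the highest fold, 5′ to 3′, with cores on either strand in capitals.
Cebpb (chr2:167688665-167688964, plus strand): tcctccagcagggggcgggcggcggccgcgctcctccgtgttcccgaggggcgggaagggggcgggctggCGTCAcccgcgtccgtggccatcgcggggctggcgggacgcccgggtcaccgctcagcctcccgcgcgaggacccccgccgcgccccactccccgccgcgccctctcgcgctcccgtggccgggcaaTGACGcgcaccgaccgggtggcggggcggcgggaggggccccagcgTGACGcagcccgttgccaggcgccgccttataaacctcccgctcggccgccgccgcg
Klf2 (chr8:72318812-72319111, plus strand): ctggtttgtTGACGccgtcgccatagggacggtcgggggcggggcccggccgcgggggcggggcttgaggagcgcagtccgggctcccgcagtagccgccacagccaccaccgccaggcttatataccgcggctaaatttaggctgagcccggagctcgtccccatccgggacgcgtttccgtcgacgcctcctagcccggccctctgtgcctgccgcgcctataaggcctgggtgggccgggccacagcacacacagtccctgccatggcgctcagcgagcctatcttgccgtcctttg
Klf4 (chr4:55532426-55532725, minus strand): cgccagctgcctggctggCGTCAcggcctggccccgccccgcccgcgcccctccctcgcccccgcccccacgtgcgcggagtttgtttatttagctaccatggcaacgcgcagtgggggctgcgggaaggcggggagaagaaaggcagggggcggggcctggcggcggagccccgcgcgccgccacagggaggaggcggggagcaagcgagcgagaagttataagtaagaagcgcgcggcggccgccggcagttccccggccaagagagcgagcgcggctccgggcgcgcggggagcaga
Batf3 (chr1:191098164-191098463, plus strand): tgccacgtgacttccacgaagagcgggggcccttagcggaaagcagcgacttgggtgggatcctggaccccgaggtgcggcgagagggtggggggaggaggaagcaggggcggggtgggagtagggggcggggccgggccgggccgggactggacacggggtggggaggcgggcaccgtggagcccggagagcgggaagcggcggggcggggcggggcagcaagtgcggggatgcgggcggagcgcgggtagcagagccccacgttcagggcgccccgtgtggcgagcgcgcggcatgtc
The cores of Cebpb began 180, 53 and 7 bases before the start, that of Klf2 241 and that of Klf4 232 bases before it. A KLF-type motif, CCACCC, lay in the promoters of Cebpa, Cebpb, Klf2 and Batf3 (31.5% of all promoters). A C/EBP-type motif, TTGCNNCAA, lay in that of Klf6 (2.08% of all), and a PU.1-type motif, GAGGAAG, in that of Batf3 (13.6% of all). A MAF-type motif, TGCTGAC, lay in none of the 7 and in 4.67% of all. These are matches of letters, and no factor binding was measured.

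Among other myeloid factors and relatives of the 9, few passed the test. Of 52 distinct genes tested from 4 lists, 1 was higher and 1 was lower, 3.85% in all against 3.94% over all genes tested, with a median log2 fold change of 0.11. Klf9, a Krüppel-like factor induced by glucocorticoids, rose to 43.3 ± 4.31 CPM in Mac-GsαKO, against 27.7 ± 3.62 CPM in CTR. Its libraries did not overlap and its log2 fold change was 0.65 (SE 0.11, adjusted p = 0.0133 by edgeR), which did not pass without KO 2 (adjusted p = 0.05001). Klf9 was the 1 of 8 tested relatives of the Krüppel-like family that passed, and the median of that list was 0.22, against 0.09 without CTR 4 and CTR 5 and 0.10 with voom. Klf13, with Klf9 the most abundant of them per length, averaged 82.4 ± 6.58 CPM in Mac-GsαKO and 69.2 ± 12.4 CPM in CTR and did not pass (adjusted p = 0.253). Its log2 fold change was 0.25, and 0.08 without CTR 4 and CTR 5.

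Id2, an inhibitor of basic helix-loop-helix factors that dendritic and innate lymphoid cells need, fell to 241 ± 49.5 CPM in Mac-GsαKO, against 431 ± 101 CPM in CTR. Its log2 fold change was -0.84 (SE 0.18, adjusted p = 0.0267 by edgeR), and CTR 5 at 274 CPM lay below KO 4 at 325 CPM. The call was lost without KO 1, KO 2, KO 3, CTR 1 or CTR 3 (adjusted p up to 0.0807). Atf3, a stress-induced leucine zipper factor and the most abundant per length of the 38 other myeloid factors, averaged 215 ± 17.8 FPKM in Mac-GsαKO and 163 ± 24.9 FPKM in CTR. Its log2 fold change was 0.35 (SE 0.12, adjusted p = 0.121), and it passed without CTR 4 (0.44, adjusted p = 0.0423).

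In the interferon regulatory factor family 0 of 7 tested relatives of Irf8 passed, and at an unadjusted p under 0.05 by edgeR 1 was higher, Irf4, at 4.14 ± 1.19 CPM in Mac-GsαKO and 2.74 ± 0.722 CPM in CTR (adjusted p = 0.182). DESeq2 and voom also called 0. Irf5 and Irf1, of these relatives the 2 with the highest FPKM over both genotypes together, had log2 fold changes of 0.24 (SE 0.18) and 0.46 (SE 0.33), and Irf1 0.29 without CTR 4 and CTR 5. Among 10 tested relatives of Maf, the C/EBP factors and Batf3, edgeR called 0, with 4 higher and 1 lower at an unadjusted p under 0.05. DESeq2 called 2 higher and voom 3. Ddit3, a stress-induced C/EBP relative and among the most abundant of that list per length, averaged 22.7 ± 2.44 CPM in Mac-GsαKO and 29.9 ± 6.36 CPM in CTR and did not pass (adjusted p = 0.125).

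Among known target genes of the factors calls ran in both directions. Of 62 distinct target genes tested 2 rose and 7 fell, 14.5% in all, against 3.94% of all genes tested. Their median log2 fold change was 0.04. The lists were chosen with earlier results of these data known, so nothing is read from this share. Among 15 PU.1 targets Csf1r and Itgam rose and Fcgr3 fell. Csf1r, the receptor for the growth factor that macrophages depend on, averaged 1295 ± 113 CPM in Mac-GsαKO and 942 ± 89.4 CPM in CTR (log2 fold change 0.46, SE 0.09, adjusted p = 0.0235 by edgeR). Itgam, an integrin chain of myeloid cells, averaged 652 ± 131 CPM in Mac-GsαKO and 377 ± 108 CPM in CTR (0.79, SE 0.20, adjusted p = 0.0494). Fcgr3, a receptor for antibody, averaged 630 ± 50.04 CPM in Mac-GsαKO and 800 ± 53.9 CPM in CTR, a log2 fold change of -0.35 (SE 0.08) at an adjusted p of 0.0388. For each of these 3 genes the genotypes did not overlap, which held for 3.25% of all genes upward and 4.55% downward. The median of the list was -0.04.

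Of 13 tested C/EBP targets Lyz2, a lysozyme gene, fell. Its values in the 5 Mac-GsαKO libraries were 8722 to 10034 CPM, against 24310 to 33295 CPM in CTR (log2 fold change -1.52, SE 0.10, adjusted p = 2.03e-05 by edgeR). The labels name no Cre driver, and the part of a Cre allele in the Lyz2 level was not tested. The summed level of the list was 12150 to 14900 CPM in Mac-GsαKO and 27240 to 39360 CPM in CTR, most of it from Lyz2. The median of that list was -0.10, and it had the other sign without CTR 4 and CTR 5 (0.11), with voom (0.01) and with the length and GC correction (0.01). Of 13 tested IRF8 targets edgeR called 0, with 4 higher at an unadjusted p under 0.05, and DESeq2 called 3 higher and voom 2. Ciita, the master regulator of MHC class II genes, had the lowest p among them, with 33.7, 22.3, 19.7, 54.9 and 19.5 CPM in KO 1 to KO 5 and 10.2, 20.6, 6.32, 4.80 and 2.74 CPM in CTR 1 to CTR 5. Its log2 fold change was 1.74 (SE 0.47, adjusted p = 0.0587 by edgeR), and 2.31 without CTR 2 (adjusted p = 0.0188). It was smaller without CTR 4 and CTR 5 (1.29, adjusted p = 0.0955) and without KO 4 (1.41, adjusted p = 0.147). CTR 2 lay above KO 3 and KO 5, and KO 4 and KO 1 were the highest libraries.

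Of 11 tested MAF targets 0 rose and 2 fell, and the list median was 0.05, and -0.02 without CTR 2. Pf4, a platelet-type chemokine also made by macrophages, averaged 44.6 ± 11.5 CPM in Mac-GsαKO and 119 ± 29.7 CPM in CTR (log2 fold change -1.41, SE 0.20, adjusted p = 0.00666 by edgeR). Ccl24, a chemokine of alternatively activated macrophages, averaged 2.35 ± 0.341 CPM in Mac-GsαKO and 6.83 ± 2.95 CPM in CTR (-1.53, SE 0.29, adjusted p = 0.0195). Pf4 kept its call in each of 20 other settings, and Ccl24 lost it in 4, without KO 2, KO 4 or CTR 3 and with the replicate block (adjusted p up to 0.0623). Without CTR 4 and CTR 5 the log2 fold change was -1.15 for Pf4 and -1.08 for Ccl24.

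Of 13 tested targets of KLF2 and KLF4 0 rose and 3 fell, with a list median of -0.08, and 0.03 without CTR 5. S1pr1, the lipid receptor for tissue exit that KLF2 drives in lymphocytes, averaged 17.0 ± 2.49 CPM in Mac-GsαKO and 27.9 ± 4.45 CPM in CTR (log2 fold change -0.71, SE 0.13, adjusted p = 0.0189 by edgeR). Its log2 fold change was -0.60 without CTR 4 and CTR 5. Timd4 and Selp, genes of resident peritoneal macrophages, stood at 0.359 to 1.07 and 0.467 to 1.95 CPM in Mac-GsαKO, against 1.23 to 3.33 and 1.93 to 5.05 CPM in CTR. The genotypes overlapped for Selp and not for Timd4. The log2 fold change of Timd4 was -1.67 (SE 0.38) at an adjusted p of 0.0338, and that of Selp -1.67 (SE 0.43) at 0.0495. Without CTR 4 and CTR 5 both calls were lost, at 0.0594 for Timd4 and 0.0869 for Selp. At an unadjusted p under 0.05 by edgeR 1 MAF target was higher and 3 were lower, and 1 KLF target was higher and 5 were lower. DESeq2 and voom called 1 higher in each list.

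Some markers of peritoneal macrophage subsets passed the test, in both directions, where 3.94% of all genes tested were called. These lists too were chosen with earlier results of these data known, and Itgam, Timd4 and Selp also stand in the target lists above. Of 8 tested markers of monocyte-derived and small peritoneal macrophages 3 rose and 0 fell. At an unadjusted p under 0.05 by edgeR 6 were higher and 1 was lower. Of these 8 markers, 7 had a log2 fold change above 0, with a median of 0.98. Their summed level was 689 to 1367 CPM in Mac-GsαKO and 262 to 603 CPM in CTR, most of it from H2-Aa and H2-Ab1. Of 10 markers of large peritoneal macrophages Itgam rose and Alox15, Timd4 and Selp fell, and 3 of the 10 had a log2 fold change above 0, with a median of -0.45. The summed level of these 10 ran the other way, 1338 to 1698 CPM in Mac-GsαKO and 1065 to 1313 CPM in CTR, nearly all of it from Adgre1 and Itgam. The part of these subsets in the levels of the 9 factors was not tested.

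**Figure D5:**
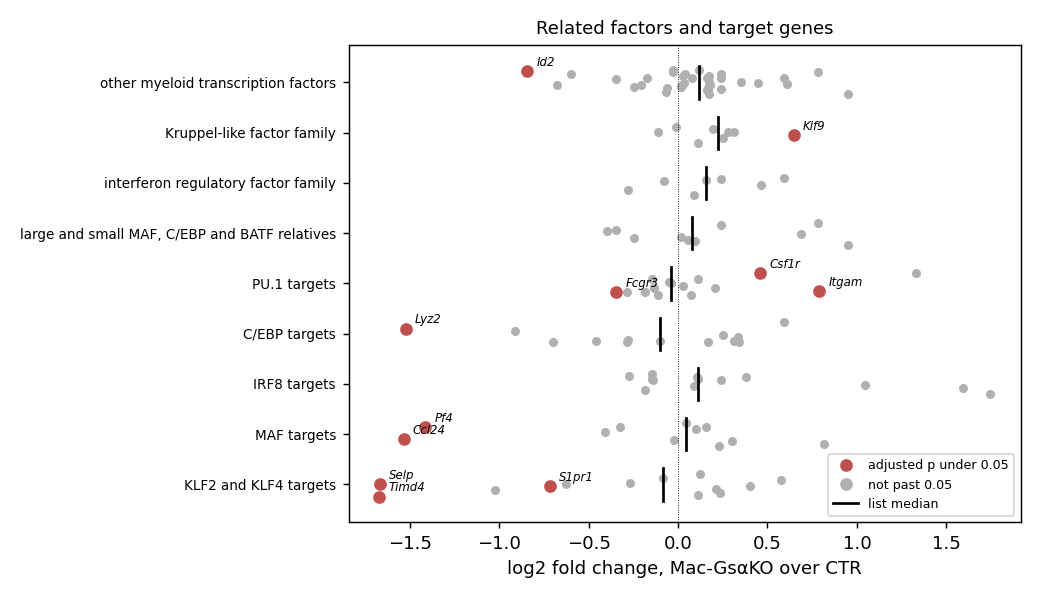
Log2 fold change, Mac-GsαKO over CTR (horizontal axis), of each tested gene in 4 lists of related factors and 5 lists of target genes (rows). Red points passed an adjusted p of 0.05, grey points did not, and black bars are list medians, which lay between -0.10 and 0.22.

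For each factor the 2 other named genes with the most similar profile over the 10 libraries were taken, by the root mean square difference of log2 CPM centred on each gene's mean, out of 11430 genes. For Batf3 they were Foxd2 and Rps19-ps7 (differences 0.257 and 0.265, where Batf3 itself varied by 0.642 about its mean). For Maf they were Tpcn1 and Zc3h12d (0.111 and 0.115, against 0.345), and for Klf2 Nab2 and Gsn (0.140 and 0.152, against 0.365). Irf8 was nearest to Slc37a1 and Hes6 (0.101 and 0.103, against 0.238), and Cebpb to Snx21 and Rras (0.113 and 0.126, against 0.385). Cebpa was nearest to Helq and Cd24a (0.115 and 0.119, against 0.256), and Klf4 to Zfp598 and Mex3d (0.0830 and 0.102, against 0.220). Spi1 was nearest to Cdc37 and Dctn2 (0.0471 and 0.0497, against 0.148), and Klf6 to Cnot3 and Wipf1 (0.0564 and 0.0572, against 0.129). None of the 9 was among the nearest of another. Without CTR 4 and CTR 5, 2 of the 18 stayed among the nearest 2, Slc37a1 for Irf8 and Cnot3 for Klf6.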

How the data were processed

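RNA of cultured peritoneal macrophages was sequenced in 5 Mac-GsαKO and 5 CTR libraries. Reads were handled with HISAT2, SAMtools 1.3.1, CASAVA 1.8 and edgeR on GRCm39, in roles the submitters' processing notes do not give. Which counter, annotation release and strand setting were used is not given in the sources used here. For each Ensembl gene the authors deposited whole-number counts and FPKM. Counts were used for all tests, and deposited FPKM for levels between genes, ratios within a library and gene length.

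Columns were assigned by the library names in the labels. Symbols were matched by identifier for 53274 of 53465 genes. In R 4.3.3, edgeR 4.0.16 with filterByExpr, TMM and a quasi-likelihood test with genotype as the only term compared Mac-GsαKO with CTR, two-sided, adjusted by Benjamini and Hochberg over 13203 genes at 0.05, and was tested on simulated data. Each SE is the size of the log2 fold change divided by the root of its F statistic. The 20 other settings were scaling by library size only or by DESeq2 size factors, no filter, a filter keeping genes with 1 CPM or more in 5 libraries or more, the Wald test of DESeq2 1.42.0, voom of limma 3.58.1 with quality weights, a robust fit, the replicate block, each library left out, CTR 4 and CTR 5 left out, and a correction for gene length and GC content (mgcv 1.9.3; GC from GENCODE M21 transcripts). Profiles without CTR 4 and CTR 5 were added after the data were seen.

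The 9 members, the gene lists and the tests were chosen with earlier results of these data known. Genes named besides the members and Gnas were, for each list, up to 4 called members with the lowest p, or the lowest p where none was called, the 2 most abundant members of the lists of factors, and the 2 nearest profiles of each member. Some genes stand in several lists, and 1 gene that the rule names is not reported here. Cd68, H2-Aa, H2-Ab1, Alox15, Adgre1, Xcr1, Clec9a, Flt3, Itgae, Cd8a, Wdfy4, Cadm1 and Tmem189 are outside this rule. No coordinates of the counted genes are given, since the annotation used here is on GRCm38, another build than the authors name; promoter sequences are RefSeq's on GRCm38.p6.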

Additional observations from a re-analysis of the deposited data

Results flagged for a closer look

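Of 58 groups of 5 libraries (a gene in a genotype), 3 held a library far from the other 4 by Dixon's criterion, and chance alone gives about 1 in 20. Klf2 stood at 16.6 CPM in CTR 4, against 10.3 to 11.7 CPM in the other CTR libraries. Lyz2 stood at 33295 CPM in CTR 4, against 24300 to 25300 CPM in the others. S1pr1 stood at 35.7 CPM in CTR 5, against 24.9 to 27.1 CPM in the others.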

How the results depend on the processing

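Batf3, Maf, Klf2, Irf8, Cebpb, Klf4 and Klf6 kept a positive log2 fold change in the 20 settings tried, and Spi1 and Cebpa did not. The 3 factors called higher became 5 with voom, which added Cebpb and Irf8, and 1 to 3 when 1 library was left out. Klf2 kept its call in 10 of the 20 settings and Maf in 17. The count of factors called lower was 0 in each setting. Over all genes, 241 higher and 279 lower became 122 and 139 without a filter, 591 and 674 with DESeq2, 1026 and 893 with voom, 59 and 45 with the replicate block, and 694 and 491 without CTR 4 and CTR 5. With 1 library left out they ranged from 32 to 484 higher and from 30 to 384 lower. With library-size scaling 59.4% of calls were higher, beside 46.3%. Of the listed factors and targets, 3 higher became 10 with DESeq2, 15 with voom and 9 without CTR 4 and CTR 5, and 8 lower became 5 without a filter and 3 with the replicate block. With 1 library left out they ranged from 0 to 7 higher and from 2 to 8 lower. Of the named genes outside the 9 factors, those near the threshold lost their call most often. Selp lost it in 12 of 20 settings, Itgam in 11, and Fcgr3 and Timd4 in 10. Csf1r and Id2 lost it in 5, S1pr1 and Ccl24 in 4 and Klf9 in 1. Atf3 and Ciita gained it in 3 each. Same-numbered libraries were not shown to be pairs: their deviations correlated between -0.126 and 0.0582 across genes, and no Mac-GsαKO library correlated best with the CTR library of its own number. The cause of these changes was not tested.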
